A study of Oryza sativa with 12 samples.

Results

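TDR (LOC_Os02g02820), EAT1 (LOC_Os04g51070) and TIP2 (LOC_Os01g18870) are genes for basic helix-loop-helix (bHLH) transcription factors of the tapetum, the innermost cell layer of the rice anther, and lie on chromosomes 2, 4 and 1. They were taken by their locus identifiers, and all 3 are among the 5084 genes of the stage 11 table, with a value in each of its 6 libraries. None of the 3 is among the 3453 genes of the stage 10 table, which holds genes selected by the authors, so their levels at stage 10 are not analysed here. Poly(A) RNA was sequenced from anthers of the nup1 mutant and of wild-type rice (Oryza sativa) at stages 10 and 11. Each of the 4 groups has 3 libraries, which the labels call biological replicates. The title of the series concerns an oxidative burst, loss of tapetal Ubisch bodies and male sterility. The labels give neither the locus or allele of nup1 nor the cultivar of either genotype, and whether these came from separate plants is not stated. Levels are in FPKM, which counts fragments per kilobase of transcript relative to the mapped fragments of a library, a scale on which levels of different genes can be set side by side.

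The tapetum feeds the developing microspores, supplies the precursors of their outer wall and then breaks down by programmed cell death. In rice, TIP2 (also called bHLH142) is known to act early and to promote expression of TDR and EAT1, and its protein binds the TDR protein. TDR (Tapetum Degeneration Retardation) is known to activate genes of lipid transport, wall precursor synthesis and proteolysis, and EAT1 (Eternal Tapetum 1) to activate the aspartic protease genes AP25 and AP37. Mutants of each gene are male sterile, with a tapetum that fails to break down on time.

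In the authors' deposited table for stage 11 each gene carries a direction, higher in nup1 for 2085 and lower for 2999, so each had already been called different. Depth in fragments is unknown. The FPKM of all listed genes summed to between 125358 and 147954 in the nup1 libraries and between 209625 and 227419 in the wild-type libraries. Nup1 replicates 1, 2 and 3 listed 20, 96 and 184 genes at exactly 0, and the wild-type libraries 0, 4 and 2. Nup1 replicate 1 stood apart. Its FPKM + 1 differed over 2-fold from both other nup1 libraries in 7.67% of the genes fitted. The share was 0.321% to 3.59% for each of the other libraries within its own genotype. Changes at stage 11 are therefore also given without nup1 replicate 1.

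TIP2, the upstream factor of the cascade, was the least abundant of the 3 in wild type and kept the largest share of its level in nup1. It had 5.18, 5.07 and 3.28 FPKM in nup1 replicates 1, 2 and 3, against 10.5, 9.07 and 10.3 FPKM in the wild-type replicates. Every nup1 library lay below every wild-type library, and replicate 3 was the lowest of all. The mean was 4.51 ± 1.06 FPKM in nup1 and 9.96 ± 0.781 FPKM in wild type (SD, n = 3 each), so nup1 held 45.3% of the wild-type level. On the scale of log2(FPKM + 1), which understates the change of low genes, TIP2 fell by 1.01 (SE 0.21, limma adjusted p = 0.00311). That call requires an adjusted p under 0.01 and a fold over 2, and TIP2 lay close to the fold limit. With 1 library left out it ended in 4 of 6 fits, among them that without wild-type replicate 3 (change -0.98, adjusted p = 0.0171) and that without nup1 replicate 3 (-0.84, adjusted p = 0.00619). It also ended in both fits that left out another wild-type library (-0.97 without replicate 1 and -1.07 without replicate 2), but not without nup1 replicate 1 (-1.10, adjusted p = 0.00291).

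TDR was the most abundant of the 3 in every library of both genotypes. It had 44.7, 30.1 and 17.3 FPKM in nup1 replicates 1, 2 and 3, and 99.0, 81.0 and 83.7 FPKM in the wild-type replicates. The genotypes did not overlap, and the nup1 libraries were more unequal than the wild-type libraries. The highest nup1 library was 2.58 times the lowest, against 1.22 times in wild type. The mean was 30.7 ± 13.7 FPKM in nup1 and 87.9 ± 9.68 FPKM in wild type (SD, n = 3 each), a nup1 level of 34.9% of wild type. TDR fell by 1.58 on the log2(FPKM + 1) scale (SE 0.32, limma adjusted p = 0.00245). Without nup1 replicate 1 the change was -1.89 (adjusted p = 0.000568), and the call held in all 6 fits that left out 1 library, the weakest being that without wild-type replicate 1 (adjusted p = 0.00996).

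EAT1, the activator of the tapetal aspartic proteases, had the largest change and the widest spread. It had 8.24, 1.60 and 0.673 FPKM in nup1 replicates 1, 2 and 3, against 42.6, 30.2 and 30.0 FPKM in the wild-type replicates. All 3 nup1 libraries were below the lowest wild-type library, and replicate 1 stood well above the other 2. The highest nup1 library was 12.2 times the lowest, while the wild-type libraries stayed within 1.42 times. The mean was 3.50 ± 4.13 FPKM in nup1, where the SD exceeds the mean, and 34.3 ± 7.21 FPKM in wild type (SD, n = 3 each), a nup1 level of 10.2% of wild type. As shares of the wild-type mean, nup1 replicates 1, 2 and 3 held 24.1%, 4.66% and 1.96%. EAT1 fell by 3.35 on the log2(FPKM + 1) scale (SE 0.58, limma adjusted p = 0.0013), and without nup1 replicate 1 the change was -4.06 (adjusted p = 6.12e-05). The call held in all 6 fits that left out 1 library.

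**Figure D1:**
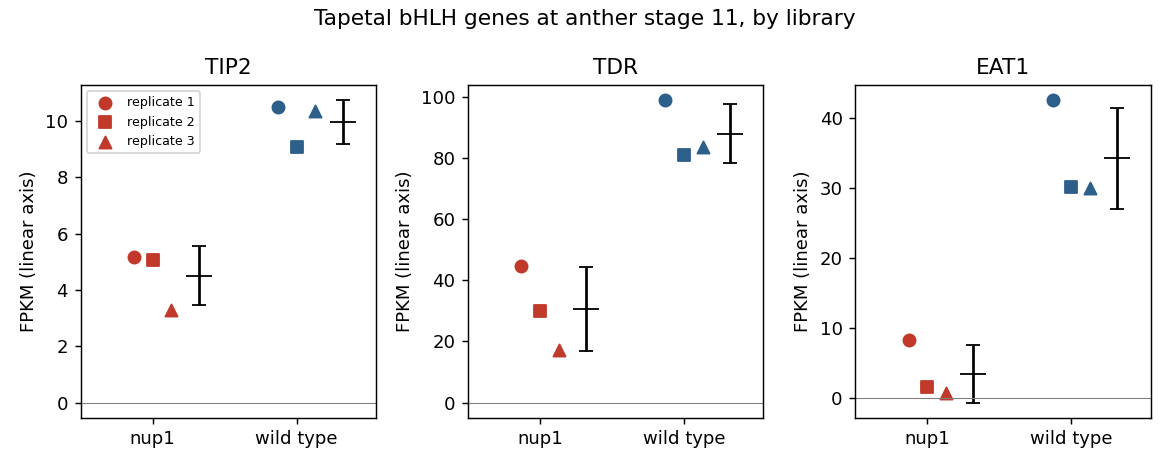
FPKM of TIP2, TDR and EAT1 in each stage 11 library on linear axes, with nup1 in red left of wild type in blue. Symbols mark replicates 1, 2 and 3, and the black bars give the mean ± SD of 3 libraries. The genotypes do not overlap for any of the genes, and EAT1 runs from 0.673 to 8.24 FPKM in nup1 against 30.0 to 42.6 FPKM in wild type.

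All 3 genes passed the threshold as lower in nup1, against a background of 46% of the 4992 genes fitted that did so. All 3 also had every nup1 library below every wild-type library, against 57.6% of the genes fitted. With backgrounds this high in a table of genes already called different, neither count sets these genes apart. An exact two-sided permutation test on log2(FPKM + 1) gave p = 0.1 for each of TIP2, TDR and EAT1. That is the smallest p it can give with 3 libraries against 3. The median change over all genes fitted was -0.98, and relative to it the changes were -0.030 for TIP2, -0.60 for TDR and -2.37 for EAT1. The authors' deposited table listed 2940 of the genes fitted as lower, with a median change of -1.39. Of these, 82.4% had a larger fall than TIP2, 38.6% a larger fall than TDR and 7.72% a larger fall than EAT1. The spread of EAT1 among the nup1 libraries was exceeded by 1.80% of those genes, that of TDR by 11.5% and that of TIP2 by 58.2%. In wild type the spread of EAT1 was exceeded by 22.2%, that of TDR by 49.9% and that of TIP2 by 69.9%.

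**Figure D2:**
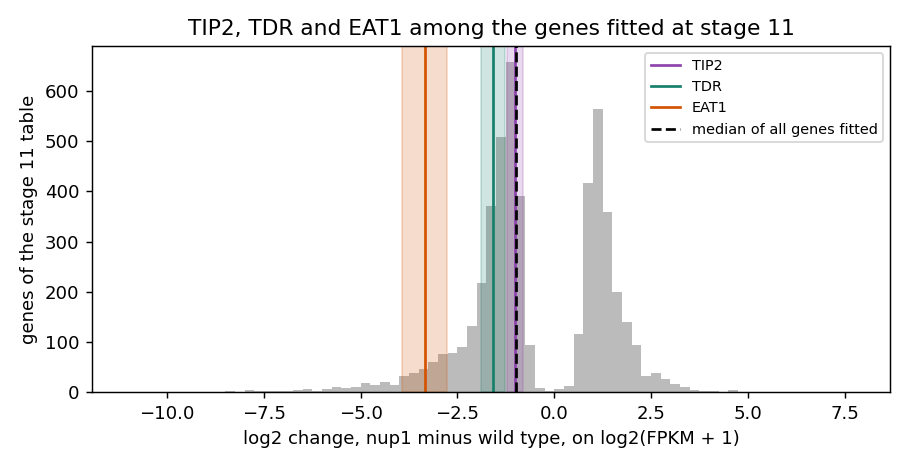
Histogram of the log2 change, nup1 minus wild type on log2(FPKM + 1), over the 4992 genes fitted at stage 11 (genes per bin of 0.25). Coloured lines with bands give TIP2, TDR and EAT1 with their SE, and the dashed line gives the median of all genes. TIP2 lies at the median of -0.98, TDR at -1.58 and EAT1 at -3.35, and few listed genes lie near 0 because the table holds genes selected as different. Under scaling to ACT1 the TIP2 change was 0.043.

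When each library was scaled to ACT1, an actin gene, all 3 genes lost their calls. The change was then 0.043 for TIP2 (SE 0.35), -0.40 for TDR (SE 0.46) and -2.34 for EAT1 (SE 0.74). Only TIP2 changed sign, but the changes of TIP2 and TDR were both smaller than their SE, so neither sign is settled under this scaling. ACT1 was itself listed as lower, at 381 ± 94.2 FPKM in nup1 and 865 ± 121 FPKM in wild type (SD, n = 3 each), so this step raises the nup1 value of every gene and moved the median change of all genes from -0.98 to 0.05. Centring each library on its median kept the calls of TDR (-1.14) and EAT1 (-2.90) and ended that of TIP2 (-0.57, adjusted p = 0.0282). Quantile normalization gave -1.20, -2.84 and -0.54 for TDR, EAT1 and TIP2, again without a call for TIP2 (adjusted p = 0.036). These steps moved the median change of all genes to -0.54 and -0.49.

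**Figure D3:**
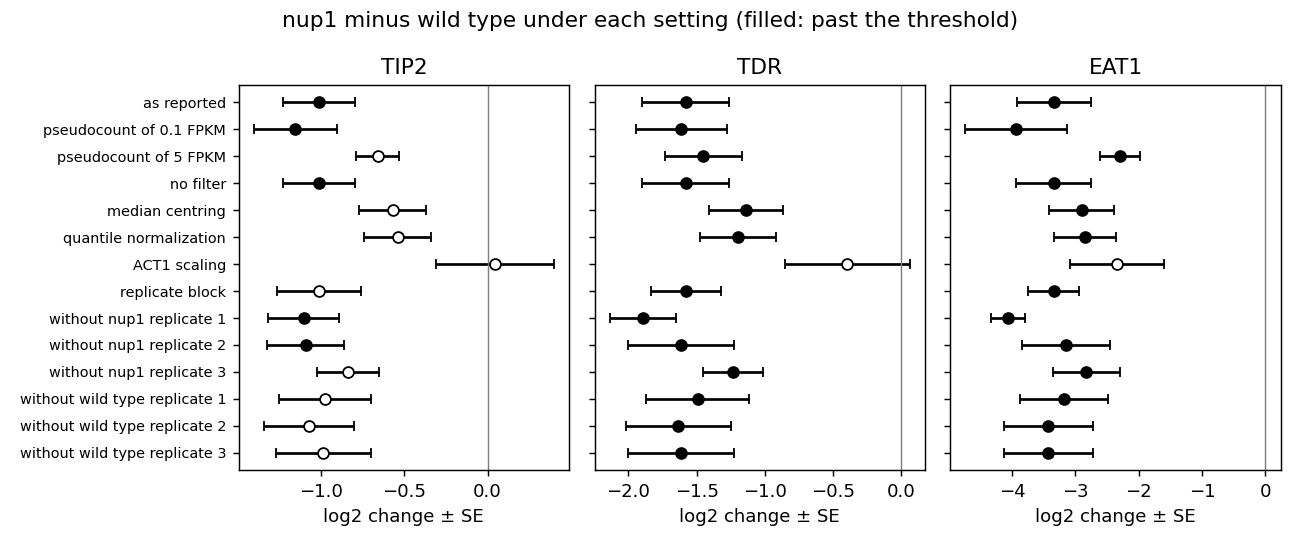
Log2 change ± SE, nup1 minus wild type, of TIP2, TDR and EAT1 as reported and under 13 other settings. Filled points pass an adjusted p under 0.01 with a fold over 2, and open points do not. TDR and EAT1 are open under ACT1 scaling only, and TIP2 is open in 9 settings and at 0.043 under ACT1 scaling.

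A ratio of 2 genes in FPKM within a library does not depend on how that library was scaled, so the 3 genes were also set against each other. The log2 ratios of (FPKM + 1) that were tested keep some dependence on scaling and on the pseudocount. EAT1 was lower relative to both of the others in nup1. The ratio of EAT1 to TDR in FPKM was 0.184, 0.0532 and 0.0389 in nup1 replicates 1, 2 and 3, against 0.430, 0.372 and 0.359 in the wild-type replicates. On the log2(FPKM + 1) scale this ratio averaged -3.11 ± 0.70 in nup1 and -1.35 ± 0.13 in wild type (SD, n = 3 each), a difference of -1.77. The ratio of EAT1 to TIP2 was 1.59, 0.315 and 0.205 in nup1, against 4.06, 3.33 and 2.90 in wild type. EAT1 was thus above TIP2 in all 3 wild-type libraries but in only 1 of 3 nup1 libraries, replicate 1, and the nup1 means of 3.50 ± 4.13 FPKM for EAT1 and 4.51 ± 1.06 FPKM for TIP2 lie within their spread. The difference of this log2 ratio was -2.34. The ratio of TDR to TIP2 was closest between genotypes, at 8.63, 5.93 and 5.27 in nup1 against 9.44, 8.94 and 8.09 in wild type, and here nup1 replicate 1 lay within the wild-type range. On the log2(FPKM + 1) scale, where nup1 replicate 1 lay just below the lowest wild-type library, the difference was -0.57. The exact two-sided permutation test gave p = 0.1 for each of the 3 pairs (0.1 after Benjamini-Hochberg adjustment), the smallest p that this test can give with 3 libraries against 3, so it cannot reach 0.05. Without a pseudocount, a setting added after the values were seen, the differences were -2.41 for EAT1 to TDR, -2.86 for EAT1 to TIP2 and -0.45 for TDR to TIP2 (exact permutation p = 0.1, 0.1 and 0.2). With a pseudocount of 5 FPKM that of EAT1 to TDR was -0.85. Without nup1 replicate 1 the differences were -2.17, -2.96 and -0.79 for EAT1 to TDR, EAT1 to TIP2 and TDR to TIP2.

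**Figure D4:**
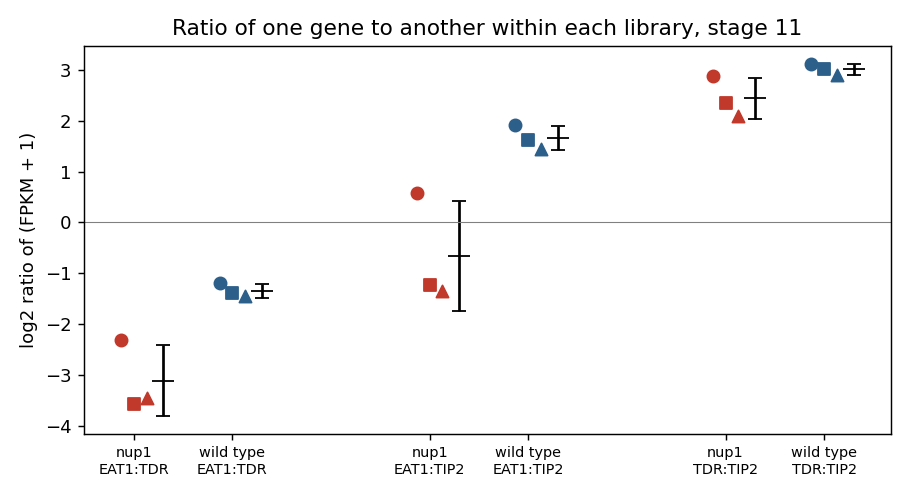
Log2 ratio of (FPKM + 1) of 1 gene to another within each stage 11 library, nup1 in red left of wild type in blue, with the mean ± SD of 3 libraries in black. Symbols are circles, squares and triangles for replicates 1, 2 and 3. Both ratios with EAT1 on top are lower in every nup1 library, with mean differences of -1.77 against TDR and -2.34 against TIP2, and the TDR to TIP2 ratio differs by -0.57.

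The 3 genes shared an order among the nup1 libraries. Replicate 1 was the highest and replicate 3 the lowest for TIP2, TDR and EAT1 alike. This order also held in 25.8% of the 2940 fitted genes that the authors' deposited table lists as lower, and 50.6% of those genes had their highest nup1 value in replicate 1. The median of those genes, as a share of the wild-type mean, was 34.4%, 28.9% and 28.0% in nup1 replicates 1, 2 and 3. TIP2 held 52.0%, 50.9% and 33.0% in these libraries, and TDR 50.9%, 34.2% and 19.7%. The part of library composition in this order was not tested.

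Other regulators of tapetum development were UDT1, GAMYB, PTC1, MYB80, MSP1, TDL1A, MIL1, API5 and TGA10. Of these 9, only TDL1A, the small secreted ligand of the receptor kinase MSP1, is in the stage 11 table. It had 1.52, 1.11 and 0.613 FPKM in nup1 replicates 1, 2 and 3, against 20.6, 17.8 and 16.2 FPKM in the wild-type replicates. It fell by 3.22 (SE 0.23, limma adjusted p = 4.23e-05), with the same order among the nup1 libraries as the 3 bHLH genes, and without nup1 replicate 1 the change was -3.37. The other 8, UDT1 and GAMYB among them, were not analysed at stage 11.

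Genes reported to act downstream of the 3 factors or in the same wall and cell death pathways were set beside the 3 genes. Of 16 such genes 9 are in the stage 11 table, 3 listed as higher and 6 as lower, and 4 passed as lower and 0 as higher. The backgrounds are 46% of all genes fitted lower and 26.3% higher. Of the 3 listed as higher, 0 had an unadjusted p under 0.05 in limma, the only tool run. The median change of the 9 was -1.47, beside -0.98 over all genes fitted. The 4 that passed were RTS, a tapetal gene needed for fertility (-5.81), ABCG26, a lipid transporter (-2.57), RAFTIN1, a Ubisch body protein (-1.56), and TKPR1, a reductase of sporopollenin synthesis (-1.16). Without nup1 replicate 1 these changes were -5.15, -2.56, -1.35 and -0.99, the TKPR1 call ended on the fold, and 5 of the genes passed as lower. Median centring ended the calls of TKPR1 (-0.72, adjusted p = 0.0499) and RAFTIN1 (-1.12, adjusted p = 0.0147), leaving 2. The TKPR1 and RAFTIN1 calls ended in 4 and 2 of the 6 fits without 1 library, TKPR1 up to an adjusted p of 0.0191 without wild-type replicate 3 and RAFTIN1 up to 0.0108 without nup1 replicate 3.

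AP25, a protease gene that EAT1 is known to activate, overlapped between the genotypes at stage 11. It had 68.6, 7.33 and 3.27 FPKM in nup1 replicates 1, 2 and 3, against 5.22, 7.50 and 5.55 FPKM in the wild-type replicates. The nup1 libraries spanned the wild-type range, and the change of 0.95 did not pass (SE 0.92, limma adjusted p = 0.34). Without nup1 replicate 1 it was -0.24 (adjusted p = 0.496). AP37, the other such protease gene, is not in the stage 11 table and was not analysed there.

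OsC6, a lipid transfer protein gene bound by TDR, had 496, 70.1 and 11.6 FPKM in nup1 replicates 1, 2 and 3, against 767, 555 and 569 FPKM in the wild-type replicates. All nup1 libraries were lower, yet replicate 1 came close to wild type, and the change of -3.03 did not pass (SE 1.15, limma adjusted p = 0.0347). Without nup1 replicate 1 it was -4.38 and passed (adjusted p = 0.00107). CYP703A3, a fatty acid hydroxylase gene, had 7.75, 1.64 and 2.37 FPKM in nup1 and 9.35, 13.2 and 10.3 FPKM in wild type. Its change of -1.47 did not pass (limma adjusted p = 0.0133), but without nup1 replicate 1 it was -1.99 and passed (adjusted p = 0.000347). CYP704B2, a second fatty acid hydroxylase gene, had 90.6, 0.973 and 1.45 FPKM in nup1 and 0.281, 0.803 and 0.620 FPKM in wild type. The cysteine protease gene CP1 had 6.81, 0.0495 and 0.652 FPKM in nup1 and 0.257, 0.393 and 0.142 FPKM in wild type. Neither change passed (limma adjusted p = 0.133 and 0.213). Nup1 replicate 1 had the most TIP2, TDR and EAT1 among the nup1 libraries. It was also the highest nup1 library for 2 of the 6 downstream genes listed as lower, OsC6 and CYP703A3. The share over all listed lower genes fitted was 50.6%. It was the highest nup1 library for all 3 downstream genes listed as higher as well. No such share was computed over all genes listed as higher, so that count has no background. The part of nup1 replicate 1 in these results was not tested beyond leaving it out.

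**Figure D5:**
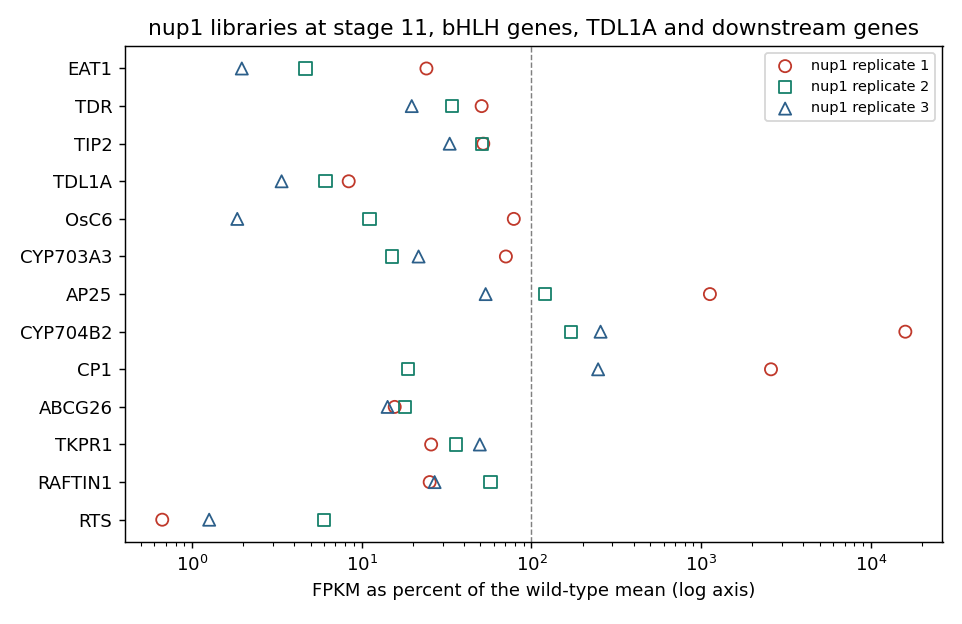
FPKM of each stage 11 nup1 library as percent of the wild-type mean, on a log axis, for the 3 bHLH genes, TDL1A and the 9 downstream genes in the stage 11 table. The dashed line is the wild-type mean. Replicate 1 (red circle) is above the other nup1 libraries for EAT1, at 24.1% against 4.66% and 1.96%, and for AP25, but not for RTS or TKPR1.

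At stage 10, where TIP2, TDR and EAT1 are not listed, 15 of the 16 downstream genes are in the table, and 11 passed as higher and 3 as lower in nup1, against 39.8% and 33.1% of all 3358 genes fitted. Their median change was 2.86, beside 0.85 over all genes fitted. Both protease genes that EAT1 activates rose at that stage. AP37 had 134, 170 and 245 FPKM in nup1 replicates 1, 2 and 3, against 1.07, 1.24 and 2.00 FPKM in the wild-type replicates. AP25 had 725, 1098 and 1126 FPKM in nup1 against 237, 93.1 and 393 FPKM in wild type, changes of 6.21 and 2.22 (limma adjusted p = 2.17e-06 and 0.00272). The AP25 call at stage 10 ended without nup1 replicate 2 (adjusted p = 0.0117) or 3 (adjusted p = 0.0129), and that of AP37 held in each fit without 1 library. PTC1, a PHD-finger regulator of tapetal development, had 25.4, 32.6 and 28.9 FPKM in nup1 against 1.70, 0.308 and 1.35 FPKM in wild type, a rise of 3.88 (limma adjusted p = 2.8e-05). TDL1A did not pass at stage 10 (change -0.71, limma adjusted p = 0.131).

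The genes whose values over the 6 stage 11 libraries were most like each factor were sought among 2558 listed genes that averaged at least 10 FPKM. Likeness was Pearson's r of log2(FPKM + 1), a description that includes the genotype difference and library effects shared by all genes. The nearest 4 genes had r of 0.995 to 0.998 for TDR, 0.998 to 0.999 for EAT1 and 0.997 to 0.998 for TIP2, and all 12 passed as lower, which choosing genes by likeness to genes that fell largely fixes. The choice likewise largely fixes that each of the 12 had its highest nup1 value in replicate 1 and its lowest in replicate 3. The nearest to EAT1, LOC_Os05g14310, had 10.7, 3.28 and 1.82 FPKM in nup1 and 39.4, 32.0 and 33.0 FPKM in wild type. The nearest to TDR, LOC_Os05g15300, had 16.3, 6.57 and 1.27 FPKM in nup1 and 87.4, 76.7 and 71.5 FPKM in wild type. Such likeness was common, with r over 0.95 in 10.9% of the genes compared for TDR, 16.5% for EAT1 and 20.3% for TIP2. Among the 9 downstream genes the r with EAT1 was 0.93 for CYP703A3, 0.92 for OsC6 and for ABCG26, 0.80 for RTS, 0.76 for RAFTIN1 and 0.69 for TKPR1. It was 0.038 for AP25, -0.10 for CP1 and -0.17 for CYP704B2. This likeness was not particular to EAT1. With TIP2 the r was higher, at 0.96 for ABCG26, 0.91 for RTS, 0.90 for RAFTIN1 and 0.75 for TKPR1. OsC6 had 0.94 with TDR. CYP703A3 was nearest to EAT1, with 0.88 for TDR and 0.81 for TIP2. AP25, CP1 and CYP704B2 had 0.042, -0.16 and -0.20 with TDR and -0.14, -0.35 and -0.38 with TIP2.

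In whole anthers, fewer tapetal cells and less RNA per tapetal cell cannot be told apart, and this holds for TIP2, TDR and EAT1. Markers of the tapetum were present in both genotypes at stage 11, with RAFTIN1 at 306 to 699 FPKM in nup1 and 1151 to 1297 FPKM in wild type, and RTS at 21.6 to 193 FPKM in nup1 and 2533 to 3697 FPKM in wild type. OsC6, the third tapetal marker, was at 11.6 to 496 FPKM in nup1 and 555 to 767 FPKM in wild type. Of 5 stamen identity genes 1, MADS4, is in the stage 11 table, at 35.3 to 42.2 FPKM in nup1 and 80.1 to 97.8 FPKM in wild type. Of 3 germ cell and meiosis genes MEL1 and PAIR2 are listed, summing to 2.72 to 4.42 FPKM in nup1 and 13.5 to 17.5 FPKM in wild type. Of 2 carpel and ovule genes MADS13 is listed, at 2.17 to 10.1 FPKM in nup1 and 24.9 to 37.7 FPKM in wild type. Of 5 green tissue genes 3 Rubisco small subunits are listed, summing to 407 to 608 FPKM in nup1 and 701 to 1324 FPKM in wild type. None of these listed markers was at 0 in a stage 11 library, and all had lower means in nup1. OsC6 and, of the green tissue list, RBCS2 and RBCS4 did not pass (limma adjusted p = 0.0347, 0.0147 and 0.0164). The authors list 2999 of the 5084 genes at stage 11 as lower. Lower means by themselves therefore do not set these markers apart. The part of these cell types in the falls of TIP2, TDR and EAT1 was not tested.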

How the data were processed

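The authors deposited FPKM in 2 tables, 1 per stage, per the file headers. Per the series design text, reads were trimmed, mapped with HISAT2 to MSU rice genome release 7 and quantified with Cufflinks, which also gave the differential calls (false discovery rate under 0.01, fold over 2), versions not given in the sources used here. A direction per gene, in words, was also deposited by the authors. FPKM is not a count, and ratios of low values between replicates did not fall on shared steps (at most 7 of 89 at 1 value to 2 decimals of log2), so depth is unknown and no count model was used.

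Within each stage, log2(FPKM + 1) was compared, nup1 minus wild type, by limma (version 3.58.1, R 4.3.3, trended variance prior), for genes averaging at least 1 FPKM across the stage's 6 libraries. Adjusted p-values are Benjamini-Hochberg over all 4992 genes fitted at stage 11 or 3358 at stage 10, and these listed genes are all selected, so the test does not check the authors' calls independently. The threshold was an adjusted p under 0.01 together with a fold over 2. The code was tested on simulated data drawn with the wild-type spread of each gene in all 6 libraries. The wider spread of the nup1 libraries was not simulated, so false calls under it were not tested. Alternatives were other pseudocounts, no filter, median centring, quantile normalization, ACT1 scaling, leaving out each library and a replicate block.

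The genes, lists and tests were chosen with earlier results of these data known. Named genes are the 3 factors, every listed gene of the regulator and downstream lists, and the 4 genes most like each factor, of which 2 are printed, since the files pair no names with loci. Symbols were entered from recall of published assignments: of 44 loci, 27 have a symbol that the reference gene table (ASM3414082v1) places on that chromosome and 17, such as ABCG26, TKPR1 and CYP704B2, have none there. A list of other bHLH genes by description was not applied, since the reference table used here holds no descriptions. Protein and promoter sequences were not used here.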

Additional observations from a re-analysis of the deposited data

Results flagged for a closer look

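Among the downstream genes, 2 had nup1 effects of opposite sign at the stages, and the difference was tested with limma's interaction contrast over the 1405 genes fitted in both tables, a test added after the values were seen. For CYP703A3 the stage 11 effect was -1.47 and the stage 10 effect 4.08, a difference of -5.55 (SE 0.89, adjusted p = 0.000437), and its stage 11 effect did not pass by itself. For TKPR1 they were -1.16 and 4.35, a difference of -5.51 (SE 0.49, adjusted p = 1.15e-05). The contrast was also read for the other downstream genes listed at both stages and for TDL1A. ABCG26 (difference -1.60, adjusted p = 0.00188) and TDL1A (-2.51, adjusted p = 0.00328) had negative effects at both stages. Neither passed at stage 10, ABCG26 on the fold (-0.96) and TDL1A on both limits (-0.71, limma adjusted p = 0.131). The adjusted p of the difference was under 0.01 for both. For RTS, CYP704B2, AP25, CP1, RAFTIN1 and OsC6 it was not. The share of the 1405 genes with an adjusted p under 0.01 was not computed, so these calls have no background. The median change was -0.98 over all genes fitted at stage 11 and 0.85 over those fitted at stage 10. These medians differ in the same direction as the differences under 0.01, and the part of this shift in them was not tested. TIP2, TDR and EAT1 are listed at stage 11 alone, so no such difference was computed for them.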

How the results depend on the processing

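Of 13 alternatives, 12 kept the sign and call of TDR and of EAT1, and 4 those of TIP2. ACT1 scaling gave -0.40 for TDR (adjusted p = 0.548), -2.34 for EAT1 (adjusted p = 0.0242) and 0.043 for TIP2 (adjusted p = 0.942). TIP2 also missed the threshold with a pseudocount of 5 FPKM (-0.66, on the fold alone), median centring (-0.57), quantile normalization (-0.54) and a replicate block (-1.01, adjusted p = 0.0102). Leaving out 1 library gave -1.89 to -1.23 for TDR, -4.06 to -2.83 for EAT1, -1.10 to -0.84 for TIP2, and -2.17 to -1.53, -2.96 to -1.99 and -0.79 to -0.40 for the ratios EAT1 to TDR, EAT1 to TIP2 and TDR to TIP2, which kept their sign. With pseudocounts of 0.1 and 5 FPKM these ratios kept their sign at -2.32 and -0.85, -2.78 and -1.64, and -0.46 and -0.79.

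Genes passing at stage 11 numbered 3610, of which 1315 were higher and 2295 lower. They numbered 2168 (760 higher, 1408 lower) with a pseudocount of 5 FPKM and 2383 (498 lower) with ACT1 scaling, and 1254 were lower with median centring and 1221 with quantile normalization. The share lower was 63.6% as reported, 40.0%, 39.1% and 20.9% with median centring, quantile normalization and ACT1 scaling. These steps act on genes all selected as different, so they shift that balance themselves. Downstream genes passing as lower at stage 11 numbered 4, and 2 with median centring, which ended the calls of RAFTIN1 and TKPR1. For single downstream genes and TDL1A, 112 of 128 alternative values kept sign and call. Genes without a call, such as CP1 and AP25, count as kept where they still had none. Of the 7 settings with all libraries, TKPR1 kept its call in 3 and RAFTIN1 in 4. AP25 ranged from -0.24 to 1.78 when 1 library was left out. CYP704B2 and CP1 fell under the filter without nup1 replicate 1 and gave no value there.

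The labels do not say that replicate numbers pair the samples. Same-numbered deviations correlated across genes at -0.093, -0.23 and 0.083 at stage 11 and at 0.038, 0.25 and 0.18 at stage 10. At stage 11, 1 of 3 nup1 replicates was most like its own number, and at stage 10, 2 of 3, so the numbers were not taken as pairs at either stage. With the replicate block 3472 genes passed, and TIP2 lost its call while TDR and EAT1 kept theirs. Depth is unknown, so no limit of detection can be given.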
